A study of Mus musculus with 8 samples.

Results

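The Notch genes of the mammary epithelium were examined in pregnant BMPR1a cKO mice and their controls on day 14.5 of pregnancy. The group holds 10 genes chosen by name from the 55933 genes of the deposited table, namely the receptors Notch1, Notch2, Notch3 and Notch4, the ligands Jag1, Jag2 and Dll1, the nuclear effector Rbpj and the target genes Hes1 and Hey1. RNA-seq was performed on 4 control and 4 cKO mice, with 1 library per mouse, and each value is an FPKM, the fragments on a gene divided by its length in kilobases and by the depth of the library. The strain of all mice was C57BL/6. The cKO mice carried K14-rtTA, teto-Cre and floxed Bmpr1a on both alleles, so that doxycycline switched on Cre in K14-expressing myoepithelial cells. The control mice were littermates, which the labels call WT, and their transgenes and doxycycline treatment are not given in the sources used here. Glands were digested with collagenase and hyaluronidase and red blood cells were removed, so each library holds the whole epithelial preparation and not sorted myoepithelial cells, the layer in which Cre was driven.

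Notch signaling passes between touching cells. A Jagged or Delta-like ligand on one cell binds a Notch receptor on its neighbour, ADAM proteases and gamma-secretase then cut the receptor, and the freed intracellular domain joins RBPJ on DNA and switches on repressors of the Hes and Hey families. Without that domain RBPJ holds the same genes silent together with corepressors. In the mammary gland the pathway is known for its part in luminal cell fate, and loss of Rbpj in the epithelium disturbs the balance of basal and luminal cells in pregnancy.

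The targeted gene was looked at first. Bmpr1a stood at 10.6, 11.7, 8.74 and 9.52 FPKM in the control libraries and at 12.0, 12.0, 10.2 and 10.4 FPKM in the cKO libraries. The cKO mean was above the control mean (log2 difference 0.13 ± 0.10 SE, limma adjusted p = 0.56). The difference was 0.10 for replicates 1 and 2 and 0.16 for replicates 3 and 4, it had a limma p of 0.0376 with a block for these sets, and it came down to 0.07 without control replicate 3, with equal sums of FPKM or with library totals. In none of these fits was the gene lower in the libraries labelled cKO, and directions are those of the labelled groups. Each value sums the gene's exons over the whole preparation, so it does not measure the deletion in K14-expressing cells. Each library had between 16123108 and 19896988 reads on genes. Libraries of replicates 1 and 2 deviated from their group means in a like way, as did those of replicates 3 and 4 (mean correlation over genes 0.115 for equal numbers, 0.133 for the other number of the same set and -0.124 across sets), so differences within these sets are given where a result turns on them. The labels name no batch.

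None of the 10 Notch genes differed between control and cKO mice at an adjusted p under 0.05 (limma on log2(FPKM + 1), two-sided, n = 4 per group), where 0.892% of the 15143 genes tested were called. At an unadjusted p under 0.05 only Rbpj was called, 1 of 10 genes against 16.4% of all genes. In no case did the 4 control and 4 cKO libraries separate without overlap, which 10.7% of all genes did. The fitted difference was positive for 5 of the genes and negative for 5, with a median of 0.01 on the log2 scale beside 0.00072 for all genes tested. The median size of the difference was 0.10, beside 0.11 for all genes. limma-voom on the recovered reads also called 0 of the 10 at an adjusted p under 0.05, and 2 at an unadjusted p under 0.05 (Jag1 and Rbpj). All 10 genes averaged at least 0.5 FPKM over the 8 libraries and so entered the test.

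Markers of both epithelial layers were present in every library. The summed FPKM of 8 basal markers, among them Krt14 and Trp63, ranged from 1981 to 2699 in control and from 1803 to 2500 in cKO libraries, and that of 7 luminal markers, among them Krt8, from 4924 to 6359 and from 4843 to 6478. These sums hold unlike genes, and the counts of markers called below stand beside 8.85% of all genes higher and 7.53% lower. At an unadjusted p under 0.05, Krt14 and Trp63 were lower in cKO mice, 2 of 8 basal markers, with log2 differences of -0.39 and -0.42 (limma adjusted p = 0.209 and 0.181), while the other 6 were not called, with Krt17 at -0.35 and Acta2 at 0.21 as the lowest and the highest of them. The basal list as a whole had 4 positive and 4 negative differences. Of the luminal markers, 1 of 7 was called, the alveolar regulator Elf5, at 0.82 (adjusted p = 0.0591). All 6 alveolar secretory markers had a positive difference, with a sum of 2525 to 3397 in control and 4910 to 8080 in cKO libraries, and 5 of them (Csn2, Csn1s1, Csn3, Wap and Xdh) were higher at an unadjusted p under 0.05, of which Wap (2.25, limma adjusted p = 0.034) and Csn2 (1.02, adjusted p = 0.0461) also passed after adjustment. All 9 endothelial markers had a negative difference, 4 of them at an unadjusted p under 0.05 and Vwf also after adjustment (-0.46, limma adjusted p = 0.0268), with a sum of 116 to 127 in control and 85.2 to 121 in cKO libraries. Macrophage markers summed to 80.0 to 111 and 57.1 to 86.2, with 2 of 6 lower at that threshold, and fibroblast markers to 382 to 799 and 262 to 624, with 0 of 6 called. Lymphocyte markers summed to 4.08 to 27.4 and 2.20 to 5.15, with 2 of 4 tested lower, adipocyte markers to 77.5 to 119 and 98.4 to 130, with 2 of 3 tested higher and Cidec also after adjustment (0.86, limma adjusted p = 0.0377), and hormone-sensing luminal markers to 25.6 to 39.5 and 21.1 to 27.4, with 0 of 5 called. Negative differences were not particular to the endothelial list. The 6 macrophage, 6 fibroblast and 4 tested lymphocyte markers all had one as well, while the 3 tested adipocyte markers all had a positive one. No marker of the basal, luminal, alveolar, endothelial, macrophage or fibroblast list was at 0 in any library. Their part in the differences of the Notch genes was not tested. In such bulk samples fewer cells of a type and less RNA per cell cannot be told apart.

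**Figure D1:**
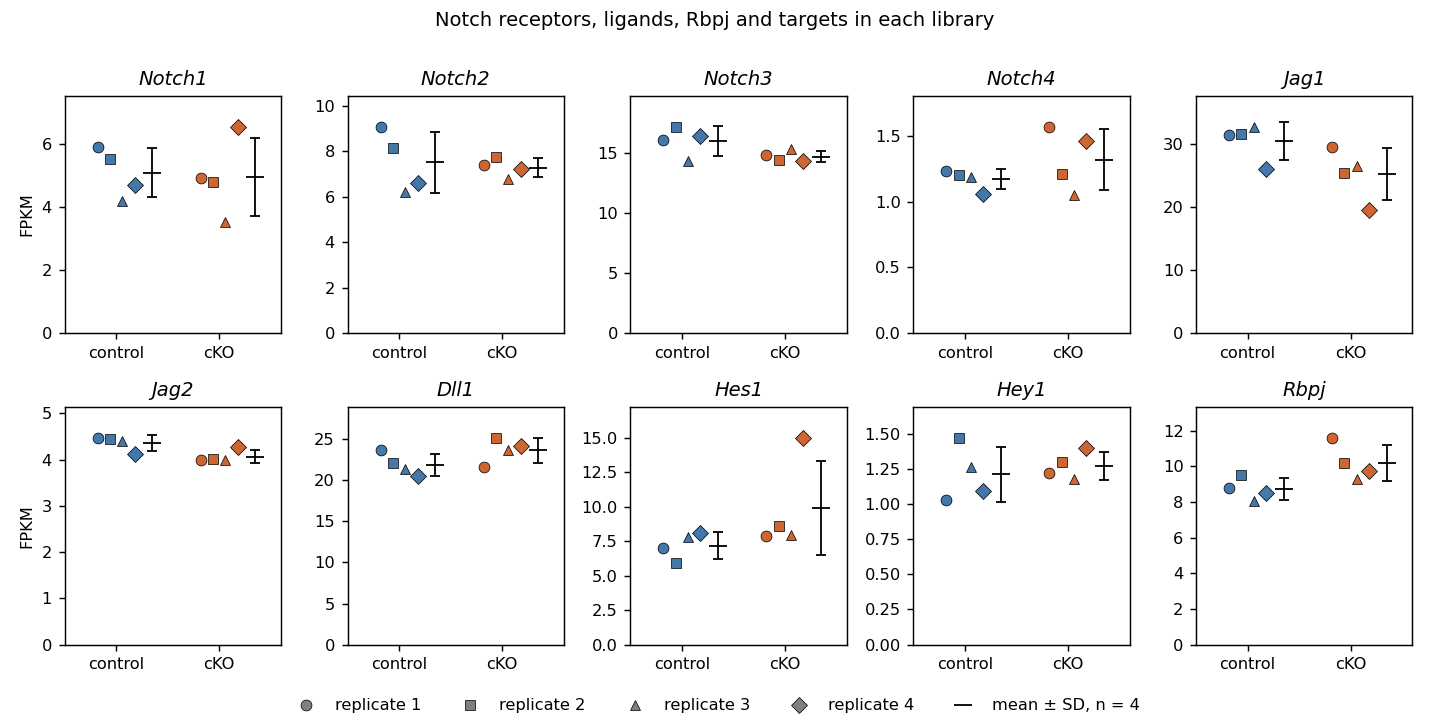
FPKM of each Notch gene (linear axes from 0, a separate scale for each gene) in the 4 control (blue) and 4 cKO (orange) libraries, with a marker shape for each replicate number and bars for the mean ± SD (n = 4). The groups overlap for all 10 genes, and cKO replicate 4 stands above the others for Hes1 at 15.0 FPKM.

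Ligand RNA led the order of levels. Averaged over both groups, Jag1 was highest, followed by Dll1, Notch3, Rbpj, Hes1, Notch2, Notch1 and Jag2, with Notch4 and Hey1 last. Several neighbours in this order did not hold it in every library. Jag1 exceeded Dll1 in 7 of 8 libraries, Rbpj exceeded Hes1 in 7, Hes1 exceeded Notch2 in 6, and Notch1 exceeded Jag2 in 6. Notch4 and Hey1 had a ratio of means of 1.00 and exchanged places between libraries. FPKM divides by the summed exon length of a gene, which for Rbpj (12750 bases) is much above its longest coding transcript (5485 bases). Per length of the longest coding transcript, Rbpj moved up to the third place with 20.3 ± 1.44 units in control and 23.8 ± 2.37 in cKO mice (SD, n = 4), above Notch3 in 8 of 8 libraries.

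Notch3 was the main receptor by RNA level. It is known in vessels for its role in mural cells, and in the mammary gland it has been linked to luminal progenitors. Notch3 (chr17:32120820-32166852, minus strand, GRCm38) stood at 16.1, 17.2, 14.3 and 16.4 FPKM in control and 14.8, 14.4, 15.3 and 14.3 FPKM in cKO libraries. Replicate 4 of the cKO mice lay below every control library by less than the last digit given, and the other cKO libraries lay within the control range. The means were 16.0 ± 1.21 and 14.7 ± 0.485 FPKM (SD), and the log2 difference was -0.11 ± 0.07 (SE, 95% interval -0.26 to 0.04, limma adjusted p = 0.459). Without control replicate 3 it was -0.16, with a limma p of 0.0306 before adjustment. It was -0.17 with equal sums of FPKM or library totals, with a limma p of 0.108 and of 0.0601. Among 7 pericyte markers, which cover the mural cells, the sum ranged from 49.8 to 63.6 FPKM in control and from 33.0 to 59.7 in cKO libraries, and 1 of the 6 tested was lower at an unadjusted p under 0.05. The difference was negative for all 6.

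Notch2 and Notch1 followed. The 4 control libraries held 9.09, 8.14, 6.23 and 6.60 FPKM of Notch2 (chr3:98013527-98150361, plus strand), and the cKO libraries 7.39, 7.76, 6.79 and 7.21. The control libraries spread more widely than the cKO libraries and enclosed all of them, with replicates 1 and 2 above replicates 3 and 4 by 0.37 on the log2 scale in control and by 0.10 in cKO mice. For Notch1 (chr2:26457903-26516663, minus strand), the receptor best known from T cell development, control values were 5.90, 5.52, 4.18 and 4.71 FPKM and cKO values 4.91, 4.81, 3.52 and 6.55 FPKM. Both the lowest and the highest Notch1 value came from cKO mice. The log2 differences of Notch2 and Notch1 were -0.03 ± 0.11 and -0.05 ± 0.15 (SE), and both were negative in the set of replicates 1 and 2 (-0.16 and -0.20) but positive in the other set (0.11 and 0.10). Their 95% intervals ran from -0.27 to 0.22 for Notch2 and from -0.40 to 0.30 for Notch1. Leaving out control replicate 1 turned the sign of both differences, to 0.06 for Notch2 and 0.02 for Notch1, as did leaving out cKO replicate 3, to 0.0022 and 0.08. For Notch2 the sign also turned without control replicate 2 (0.01).

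Notch4, best known from endothelial cells, was the scarcest receptor. Its values (chr17:34564268-34588503, plus strand) were 1.23, 1.20, 1.19 and 1.06 FPKM in control and 1.57, 1.21, 1.05 and 1.46 FPKM in cKO libraries, on 135 to 244 reads. 2 cKO libraries lay above every control library and 1 lay below. The difference was 0.09 ± 0.09 (SE), with a 95% interval of -0.11 to 0.30 and an adjusted p of 0.662, while the endothelial markers named above had negative differences. It was 0.04 without cKO replicate 1, 0.06 without cKO replicate 4, 0.15 without cKO replicate 3 and 0.18 with limma-voom.

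The order Notch3 over Notch2 over Notch1 over Notch4 held in 8 of 8 libraries on the FPKM scale. Per length of the longest coding transcript, Notch2 and Notch1 had a ratio of means of 1.01, and Notch2 was higher in 6 of 8 libraries. As a share of the summed receptor FPKM, Notch3 made up 53.9% ± 3.04 in control and 52.1% ± 3.81 in cKO mice (SD, n = 4). Notch2 made up 25.2% ± 2.22 and 25.8% ± 1.30, and Notch1 17.0% ± 0.952 and 17.4% ± 3.70. Notch4 contributed 3.96% ± 0.434 and 4.67% ± 0.678. The receptor sum itself was 29.7 ± 3.03 FPKM in control and 28.3 ± 1.16 FPKM in cKO mice. The composition of the receptor pool thus moved by less than the spread between mice, apart from Notch4, whose mean share moved by a little more than either SD.

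**Figure D2:**
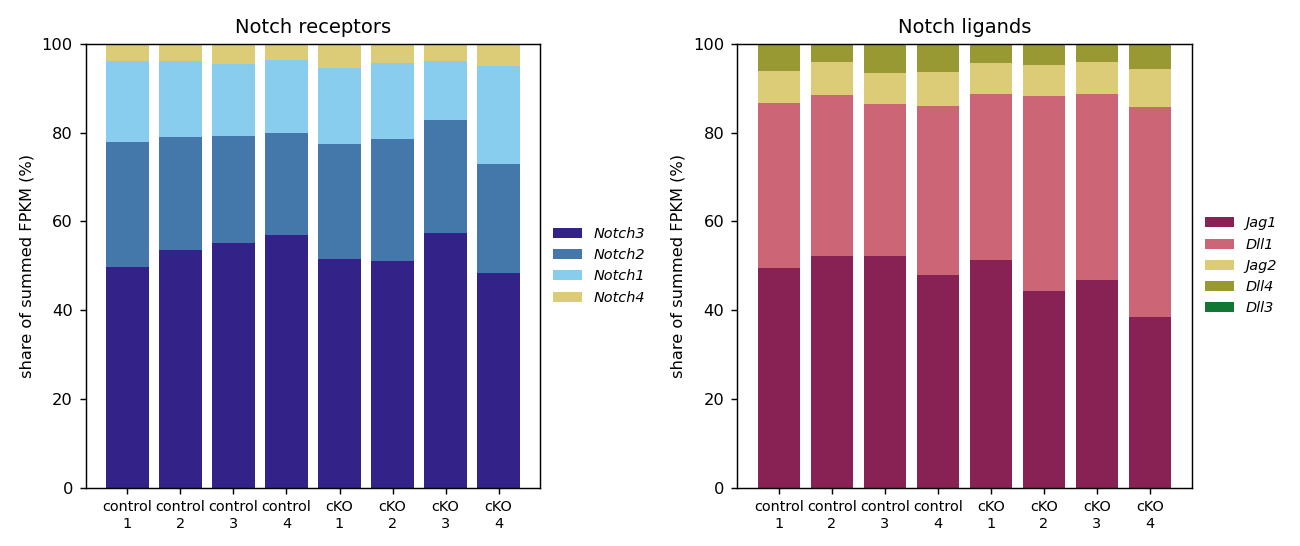
Share of each receptor (left) and each ligand (right) in the summed FPKM of its family, in percent, for each of the 4 control and 4 cKO libraries; each bar is 1 library and sums to 100%. Notch3 takes the largest receptor share in every library, and Dll1 takes a larger ligand share than Jag1 only in cKO replicate 4.

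Jag1 and Dll1 carried most of the ligand RNA. Jag1 (chr2:137081456-137116644, minus strand), the Jagged ligand of many epithelia, stood at 31.5, 31.7, 32.8 and 26.0 FPKM in control and 29.6, 25.5, 26.5 and 19.6 FPKM in cKO libraries. cKO replicates 2 and 4 lay below every control library, and the groups overlapped through control replicate 4 and the other two cKO libraries. The mean was 30.5 ± 3.06 FPKM in control and 25.3 ± 4.15 FPKM in cKO mice (SD), and the log2 difference was -0.27 ± 0.12 (SE, 95% interval -0.55 to 0.01). Its unadjusted p was 0.0589 and its adjusted p 0.325 with limma. Both sets of replicates had a negative difference, of -0.20 for the first set (1 and 2) and -0.34 for the second (3 and 4). Without cKO replicate 4 it was -0.16. Jag1 had an unadjusted p under 0.05 in 5 of 11 other fits and an adjusted p under 0.05 in none of them.

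Dll1, a Delta-like ligand linked to mammary stem cells, showed the opposite sign. Control libraries held 23.7, 22.1, 21.4 and 20.6 FPKM of Dll1 (chr17:15367354-15376872, minus strand), and cKO libraries 21.6, 25.2, 23.7 and 24.2 FPKM. Replicates 2, 3 and 4 of the cKO mice lay above every control library, replicate 3 by less than the last digit given, and replicate 1 lay within the control range. The difference was 0.11 ± 0.07 (SE, 95% interval -0.05 to 0.26, limma adjusted p = 0.497). In the first set of replicates it was 0.03, in the second 0.18. With equal sums of FPKM or library totals it was 0.05, with a limma p of 0.628 and of 0.553.

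Jag2, the second Jagged ligand, was several times scarcer. It stood at 4.47, 4.45, 4.40 and 4.12 FPKM in control and 3.98, 4.02, 3.98 and 4.27 FPKM in cKO libraries (chr12:112907819-112929776, minus strand). Replicates 1 to 3 of the cKO mice lay below every control library by a small margin, and replicate 4 lay inside the control range. Jag2 varied little between mice, with SDs of 0.166 around a control mean of 4.36 FPKM and 0.139 around a cKO mean of 4.06 FPKM. The log2 difference was -0.08 ± 0.06 (SE, 95% interval -0.22 to 0.05, limma adjusted p = 0.537). It grew to -0.13 with equal sums of FPKM or library totals, with a limma p of 0.124 and of 0.0751.

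The remaining Delta-like ligands were Dll4 and Dll3. Dll4, the ligand of sprouting vessels, stood at 3.69, 2.38, 4.04 and 3.31 FPKM in control and 2.46, 2.63, 2.17 and 2.87 FPKM in cKO libraries. The lowest control library lay inside the cKO range. The log2 difference of Dll4 was -0.29 ± 0.13 (SE), with a limma p of 0.0487 and an adjusted p of 0.302, and it moved to -0.41 without control replicate 2 and to -0.21 without control replicate 3. The unadjusted call was kept in 2 of 8 fits without a library and in 8 of 11 other fits. Of the 9 endothelial markers, Pecam1, Emcn, Eng and Vwf were lower at an unadjusted p under 0.05, with log2 differences of -0.29, -0.31, -0.31 and -0.46. The others were not called and had smaller differences, from -0.00 for Esam to -0.22 for Cdh5. Their part in the Dll4 value was not tested. Dll3 had at most 8 reads in a library and was not tested.

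As shares of the summed ligand FPKM, Jag1 made up 50.5% ± 2.10 in control and 45.3% ± 5.33 in cKO mice (SD, n = 4), and Dll1 made up 36.5% ± 1.70 and 42.7% ± 4.14. In cKO replicate 4 the order turned, with 38.5% for Jag1 and 47.4% for Dll1. The share of Jag2 was 7.25% and 7.33%, and that of Dll4 was 5.57% ± 1.13 and 4.58% ± 0.755. The ligand sum was 60.2 ± 4.26 FPKM in control and 55.6 ± 3.12 FPKM in cKO mice.

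Rbpj encodes the DNA-binding protein on which all 4 receptors converge. Its values (chr5:53466152-53657362, plus strand) were 8.78, 9.53, 8.05 and 8.50 FPKM in control and 11.6, 10.2, 9.29 and 9.76 FPKM in cKO libraries, on 1720 to 2867 reads. 3 cKO libraries lay above every control library, and cKO replicate 3 lay just below control replicate 2. The mean was 8.72 ± 0.619 FPKM in control and 10.2 ± 1.02 FPKM in cKO mice (SD), a ratio of 1.17. The log2 difference was 0.21 ± 0.08 (SE, 95% interval 0.02 to 0.39), with a limma p of 0.0309 and an adjusted p of 0.25. Replicates 1 and 2 gave 0.23, and replicates 3 and 4 gave 0.18. The processed pseudogene Rbpj-ps3 on chromosome 6 held 9 to 35 reads per library and Rbpj-ps1 held 0, so few reads were listed on copies, although the split of shared reads between them is not given in the sources used here.

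The unadjusted call of Rbpj depended on the libraries and on the scaling. It was kept in 9 of 11 other fits and in 3 of 8 fits without a library, with an adjusted p under 0.05 in 0 of them. It was lost when control replicate 1, 3 or 4 or cKO replicate 1 or 2 was left out, with p from 0.0533 to 0.0816 in these 5 fits. With each library scaled to the same sum of FPKM the difference was 0.15 (limma, unadjusted p = 0.223), and with library totals it was 0.15 (unadjusted p = 0.144).

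RBPJ is known to bind the core TGGGAA, which reads TTCCCA on the other strand, and the promoter windows of the RefSeq table (GRCm38.p6) were searched for it because Notch target genes are known to carry it. Windows were found for 8 of the 10 genes, in 10 entries, and not for Hes1 and Hey1. Only Rbpj, in both of its 2 entries, held the core within 250 bases before the start, while 21.6% of all 32851 windows hold at least 1 copy and 2.77% hold 2 or more. The longer form GTGGGAA, which contains the core, was in none of them and is in 5.42% of all windows. The stretch of the first Rbpj window before the first exon of an annotated transcript, the short surroundings of the second copy, and the upstream window of Nrarp, a Notch target described below whose window holds no copy, are shown 5′ to 3′ on the plus strand with the core in capitals. The 2 copies in the first Rbpj window lie 149 and 65 bases before its start at 53590346. The copy at 65 bases lies inside that exon, which begins at 53590214, downstream of the annotated start of the gene, and the single copy of the second entry, 205 bases before 53590486, is this same site. These letters are a description of the sequence and no measure of binding.
Rbpj, chr5:53590096-53590213: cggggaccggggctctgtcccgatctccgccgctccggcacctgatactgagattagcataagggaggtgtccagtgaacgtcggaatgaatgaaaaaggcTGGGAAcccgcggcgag
Rbpj, second copy, chr5:53590271-53590296: cgctcgcattTTCCCAggacccctcc
Nrarp, chr2:25180508-25180757: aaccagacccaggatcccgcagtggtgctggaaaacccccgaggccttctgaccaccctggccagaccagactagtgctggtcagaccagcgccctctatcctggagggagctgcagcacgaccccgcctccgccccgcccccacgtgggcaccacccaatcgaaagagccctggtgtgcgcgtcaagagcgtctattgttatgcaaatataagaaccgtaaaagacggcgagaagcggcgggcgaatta

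Hes1, the best known transcriptional target of Notch, had the largest fitted difference of the 10 genes and the widest relative spread among the cKO mice. It stood at 6.97, 5.89, 7.79 and 8.06 FPKM in control and 7.91, 8.63, 7.98 and 15.0 FPKM in cKO libraries (chr16:30064384-30067796, plus strand). 1 library, cKO replicate 4, stood far above all others, and the other 3 cKO libraries lay around the highest control values. The mean was 7.18 ± 0.973 FPKM in control and 9.88 ± 3.42 FPKM in cKO mice (SD), and the log2 difference was 0.37 ± 0.19 (SE, 95% interval -0.05 to 0.80, limma adjusted p = 0.366). Without cKO replicate 4 the difference was 0.17 (unadjusted p = 0.135, adjusted p = 0.507). The same library had the lowest Jag1 value and the highest Notch1 value of all 8.

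Hey1, a second Notch-induced repressor, was scarce, on 58 to 85 reads. Control libraries held 1.03, 1.47, 1.26 and 1.09 FPKM (chr3:8663359-8667256, minus strand) and cKO libraries 1.22, 1.30, 1.18 and 1.40 FPKM. All cKO values lay inside the control range, and the difference was 0.04 ± 0.09 (SE, 95% interval -0.15 to 0.24, adjusted p = 0.844). It ranged from 0.0028 without control replicate 1 to 0.10 without control replicate 2, and was 0.01 with equal sums of FPKM.

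Most other Hes and Hey genes were near the limit of detection. Of the 9 target repressors listed, 4 passed the filter on low values (Hes1, Hey1, Heyl and Hes6), and 0 of these 4 were called at an unadjusted p under 0.05, beside 16.4% of all genes. Heyl stood at 2.61 ± 0.370 FPKM in control and 2.42 ± 0.337 FPKM in cKO mice (SD, log2 difference -0.08, limma adjusted p = 0.762), and Hes6, which is not a typical Notch target, at 3.36 ± 0.788 and 3.22 ± 0.0781 FPKM (-0.03, adjusted p = 0.926). Hey2 had 5 to 22 reads per library, with 0.162 and 0.179 FPKM on average (exact permutation test of the difference, two-sided, p = 0.714). Hes7 had at most 9 reads, Hes3 and Hes5 at most 2, and Hes2 had 0 reads in all 8 libraries.

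**Figure D3:**
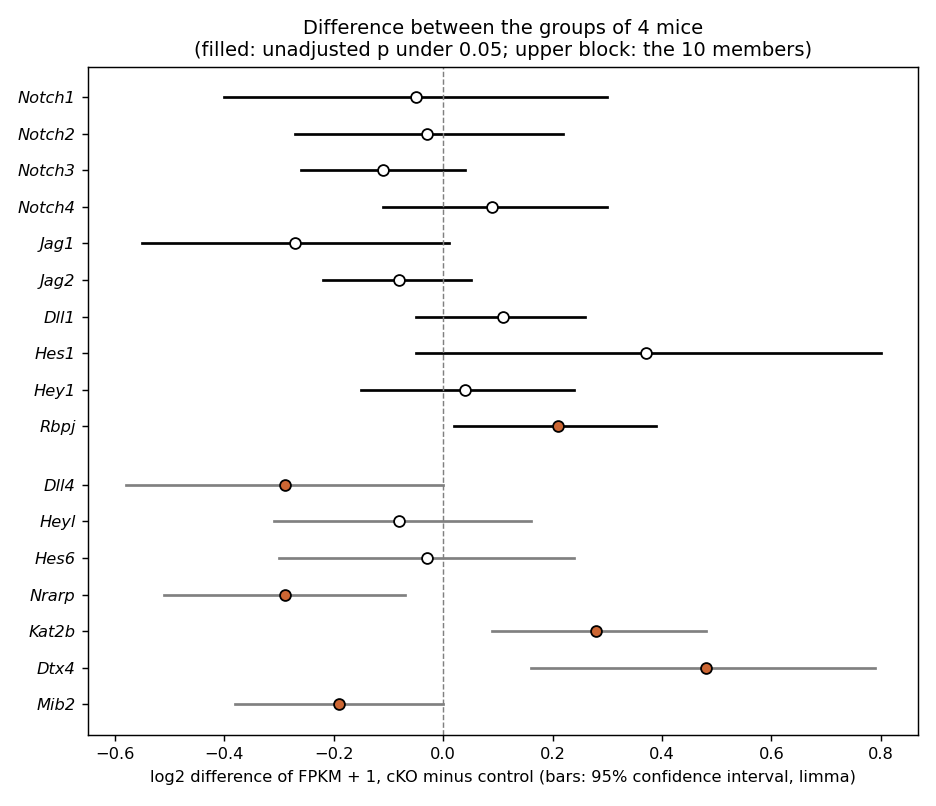
Fitted log2 difference (FPKM + 1, cKO minus control) with its 95% confidence interval (limma, n = 4 per group) for the 10 Notch genes (upper block) and for 7 other pathway genes (lower block), with filled points for an unadjusted p under 0.05. In the upper block only the interval of Rbpj (0.02 to 0.39) excludes 0, and no gene shown has an adjusted p under 0.05.

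A list of 67 pathway genes, which includes the 10, was ordered by role. Of these, 56 passed the filter, and 0 were called at an adjusted p under 0.05. At an unadjusted p under 0.05, 3 were higher in cKO mice (Rbpj, Kat2b and Dtx4, beside 8.85% of all genes tested) and 4 were lower (among them Dll4, Nrarp and Mib2, beside 7.53%). Without overlap between the groups, 1 was higher (Kat2b, beside 6.10%) and 3 were lower (Nrarp, Maml1 and Pofut1, beside 4.60%). The direction of these calls moved with the scaling, to 1 higher and 9 lower with equal sums of FPKM and to 2 higher and 11 lower with library totals. All genes moved the same way, to 788 higher and 1656 lower of 15162 tested and to 863 higher and 1793 lower of 15148 tested. These 2 scalings shifted the median of all genes by -0.048 and -0.046 on the log2 scale.

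Nrarp, a Notch target whose product restrains the receptor's intracellular domain, was lower in every cKO library than in any control library. It stood at 1.77, 1.79, 2.08 and 1.63 FPKM in control and 0.983, 1.31, 1.49 and 1.48 FPKM in cKO libraries, on 49 to 90 reads. The gap between the groups was narrow, from 1.49 to 1.63 FPKM. The log2 difference was -0.29 ± 0.10 (SE, 95% interval -0.51 to -0.07), with a limma p of 0.0166 and an adjusted p of 0.194. Replicates 1 and 2 gave -0.37, and replicates 3 and 4 gave -0.20. Its unadjusted p stayed under 0.05 in 11 of 11 other fits and in 8 of 8 fits without a library, and its adjusted p reached 0.05 in none of them. The difference itself was -0.45 with a pseudocount of 0.1 and -0.48 with limma-voom. Hes1 and Nrarp, both known as Notch targets, thus had differences of opposite sign, and neither passed after adjustment.

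In the nuclear complex, 2 of 8 genes tested were called at an unadjusted p under 0.05, Rbpj and Kat2b, beside 16.4% of all genes. Kat2b, a histone acetyltransferase recruited by the active complex, stood at 6.95, 7.75, 5.73 and 7.19 FPKM in control and 8.54, 8.93, 8.16 and 8.66 FPKM in cKO libraries. Every cKO library lay above every control library. The difference was 0.28 ± 0.09 (SE), with a limma p of 0.00905 and an adjusted p of 0.155. With equal sums of FPKM it was 0.23 and the unadjusted call was lost, with a limma p of 0.0731. Maml1, a coactivator of the complex, had 13.0 ± 0.711 FPKM in control and 11.9 ± 0.360 FPKM in cKO mice (SD), with no overlap and an adjusted p of 0.342. The other coactivators Maml2, Maml3 and Ep300 had log2 differences of -0.09, -0.00 and -0.02, each with an SE of at least 0.08.

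Dtx4 and Mib2 were singled out after their values were seen. Dtx4, of the Deltex family of ubiquitin ligases, had the largest difference of the list. It stood at 5.68, 5.38, 4.37 and 5.10 FPKM in control and 7.72, 7.45, 5.63 and 9.74 FPKM in cKO libraries, with a small overlap through cKO replicate 3, and its difference was 0.48 ± 0.14 (SE, adjusted p = 0.143). Its unadjusted call was kept in 11 of 11 other fits and in 8 of 8 fits without a library. Mib2, a ubiquitin ligase that acts on Notch ligands, was at 6.21 ± 0.344 and 5.33 ± 0.616 FPKM (SD, -0.19 ± 0.08 SE, adjusted p = 0.296). Its unadjusted call was kept in 3 of 8 fits without a library and was lost without the trend, with a limma p of 0.0515.

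Of the machinery that cuts and glycosylates the receptors, none of 3 receptor proteases, 6 tested gamma-secretase genes and 5 glycosyltransferases had an unadjusted p under 0.05, beside 16.4% of all genes. Adam10 stood at 21.9 ± 1.71 and 23.0 ± 2.10 FPKM in control and cKO mice, and the gamma-secretase subunit Ncstn at 25.2 ± 0.548 and 26.6 ± 2.30 FPKM (SD, n = 4). The glycosyltransferases had 1 positive and 4 negative differences, and Pofut1, which adds fucose to the receptors, was lower without overlap, as were 4.60% of all genes, at 1.54 to 1.65 FPKM in cKO and 1.73 to 1.99 FPKM in control libraries (-0.12, limma adjusted p = 0.422). The exons of Ncstn overlap those of Copa on the other strand, which held up to 6772 reads, and strand-specific counting is not given in the sources used here. For the 10 Notch genes such overlaps were small, with at most 12 reads in a library on an overlapping gene.

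**Figure D4:**
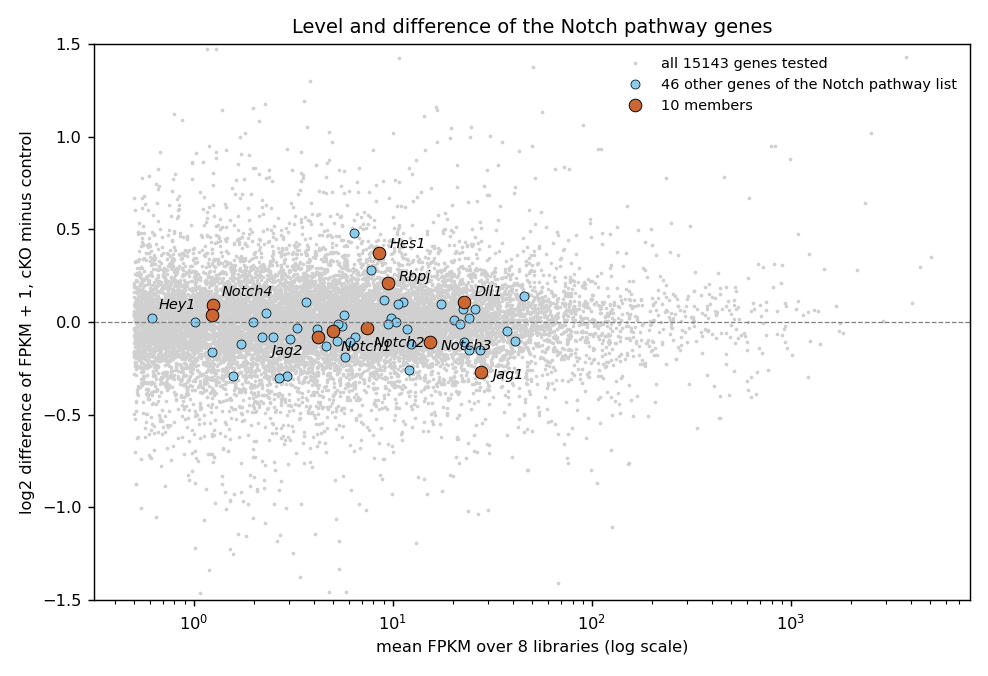
Log2 difference (FPKM + 1, cKO minus control) against the mean FPKM over 8 libraries (log axis) for the 15143 genes tested (grey), the 46 other tested genes of the pathway list (light blue) and the 10 Notch genes (orange, named); 21 genes lie beyond ±1.5 and are not drawn. The Notch genes sit within the cloud of all genes, between -0.27 for Jag1 and 0.37 for Hes1.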

How the data were processed

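Mammary epithelial RNA of 4 control and 4 cKO mice was sequenced, with 1 NEBNext Ultra library per mouse. The authors aligned the reads with Hisat2 against GRCm38, and the values they deposited are FPKM per gene. The submitters' processing notes list StringTie 1.3.3b, featureCounts 1.5.0-p3 and the build mm9, but 99.68% of the 55394 gene identifiers found in GENCODE vM21 have its GRCm38 coordinates, which were used. Gene lengths are deposited in the same table. FPKM times gene length and the library size that the steps of the values imply gave whole reads for 100% of values above 0 (tolerance 0.01 of a read), and FPKM already include size factors.

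A gene entered the test if it averaged 0.5 FPKM or more. Tests used limma 3.58.1 (R 4.3.3) on log2(FPKM + 1) (empirical Bayes with trend, Benjamini-Hochberg over all 15143 genes); a difference on this scale understates that of scarce genes. Intervals are 95%. The 10 genes and all lists were chosen with earlier results of these data known. Named are the 10 genes, Bmpr1a, all ligands, receptors and target repressors, pathway genes with an unadjusted p under 0.05, no overlap and a mean FPKM of at least 1, and defining markers; others were singled out after their values were seen. Genes under the filter with enough reads were compared by an exact permutation test. On simulated reads (5 draws, 200 changed genes each, dispersion 0.02, 15134 to 15182 genes tested), 88.6% of 2-fold and 22.8% of 1.5-fold changes were recovered, and 6.51% of calls were unchanged genes. The simulation gave every gene the same dispersion and no shared deviation of the replicate sets, so these rates need not hold for the real libraries. Alternatives were a pseudocount of 0.1, no filter or a mean of at least 1, 3 other scalings, blocks by replicate number or by set, no trend, limma-voom on recovered reads, and each library left out. Python 3.11.15 with pandas 2.3.3, scipy 1.17.1 and matplotlib 3.10.9 was used otherwise. At this depth counting error is small except where a gene has few reads, so precision is set by the number of mice. Some genes of the lists are counted but not reported here by name.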

Additional observations from a re-analysis of the deposited data

Results flagged for a closer look

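In 40 groups of 4 libraries (each group of mice for the receptors, ligands, target repressors, Rbpj, Nrarp and Bmpr1a, where the 4 values were not all equal), 4 values lay far from the other 3 of their group by Dixon's criterion, where chance gives about 2. Hes1 in cKO replicate 4 was at 15.0 FPKM, with the other cKO libraries at 7.91 to 8.63 FPKM. Jag2 in cKO replicate 4 was at 4.27 FPKM, above the other cKO libraries at 3.98 to 4.02 FPKM and inside the control range. Hes6 in cKO replicate 3 was at 3.10 FPKM, just under the other cKO libraries at 3.25 to 3.27 FPKM. Hes5 in cKO replicate 4 was at 0.0395 FPKM, with the other cKO libraries at 0. That value is 1 read, and with 3 libraries at 0 any read meets the criterion, so it says nothing about Hes5, although it is counted among the 4.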

How the results depend on the processing

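Over 19 alternatives, no member of the 10 Notch genes reached an adjusted p under 0.05, and 185 of 190 recomputed differences kept their sign. Those that turned were Notch1 without control replicate 1 (0.02) or cKO replicate 3 (0.08) and Notch2 without control replicate 1 (0.06), control replicate 2 (0.01) or cKO replicate 3 (0.0022), over ranges of -0.17 to 0.08 for Notch1 and -0.10 to 0.06 for Notch2 with a library left out. The number of the 10 at an unadjusted p under 0.05 was 1 as reported, 0 with equal sums of FPKM, 3 with the replicate block (Jag1, Rbpj and Hes1), 2 with a block for the set (replicates 1 and 2, or 3 and 4), 2 with limma-voom, 3 when limma-voom had the replicate block, and 0 to 1 with a library left out, where the called gene was Notch3 without control replicate 3, Jag1 without control replicate 4 or cKO replicate 1, and otherwise Rbpj. The number without overlap was 0 as reported, 1 with library totals and 0 to 3 with a library left out. Of the pathway list, 1 gene (Dtx4, 0.57, adjusted p = 0.027) was called at an adjusted p under 0.05 when limma-voom had the replicate block, against 0 as reported, and at an unadjusted p under 0.05 the number was 7 as reported, 13 with library totals, 11 when limma-voom had the replicate block, and as low as 4 with a library left out. Of all genes, 135 had an adjusted p under 0.05, against 10 without the filter, 50 with the replicate block, 442 with the set block, 252 with limma-voom, 680 when limma-voom had the replicate block, and 0 to 78 with a library left out (0 without control replicate 4). Of the calls at an unadjusted p under 0.05, 54.0% were higher in cKO mice, against 32.2% with equal sums and 32.5% with library totals. The causes were not tested. Same-numbered libraries had correlations of 0.0881 to 0.136 and 4 of 8 correlated best with their own number, so the numbers were not taken as pairs, and the replicate block also lost the unadjusted call of Dll4 (limma p = 0.0785), as did the set block (p = 0.054) and no filter (p = 0.0576), and with limma-voom the replicate block gave Bmpr1a a limma p of 0.0494. Scarce genes such as Hey1 and Nrarp rest on fewer than 100 reads per library.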

Other observations

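The 2 main ligands were set against each other within each library, a ratio chosen after the values were seen and given without a test. Jag1 FPKM over Dll1 FPKM was 1.33, 1.43, 1.53 and 1.26 in the control libraries and 1.37, 1.01, 1.11 and 0.81 in the cKO libraries. The mean ratio was 1.39 ± 0.12 in control and 1.08 ± 0.23 in cKO mice (SD, n = 4). 3 cKO libraries lay below every control library, and cKO replicate 1 lay among them. Per length of the longest coding transcript, Jag1 exceeded Dll1 in 4 of 4 control libraries and in 1 of 4 cKO libraries.

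Among the Fringe glycosyltransferases, which set how receptors respond to Jagged and Delta-like ligands, Lfng was singled out after its values were seen. It stood at 3.22, 2.12, 3.84 and 3.11 FPKM in control and 2.54, 2.08, 1.89 and 2.60 FPKM in cKO libraries. The groups overlapped through control replicate 2, and the log2 difference was -0.30 ± 0.14 (SE, limma adjusted p = 0.322). The differences of Mfng and Rfng were -0.16 and 0.12, with adjusted p of 0.583 and 0.484.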
